A study of Danio rerio with 23 samples.

Results

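A set of 7 genes of carnitine synthesis and mitochondrial fatty acid oxidation, bbox1, cpt1ab, cpt2, acadvl, acadm, hadhb and etfdh, were followed in RNA-seq libraries of whole zebrafish intestines taken during starvation and refeeding. They were given as a list of 7 symbols, matched to Ensembl gene identifiers through a table of gene names without regard to capitals, and each symbol found 1 of the 34326 genes counted in every library. Long-chain fatty acids cannot cross the inner mitochondrial membrane as acyl-CoA. They are carried across as esters of carnitine and are then shortened in repeated cycles of beta-oxidation, and the electrons released enter the respiratory chain through flavoproteins and NADH. In mammals fasting is known to draw on this pathway in liver and muscle. Enterocytes, the absorptive cells of the intestine, also hold its enzymes and are supplied with fatty acids by each meal.

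The study compared fish deprived of food, and later refed, with siblings that were continuously fed. All fish were born on 1 day to 1 breeding pair and were held in 4 tanks, 2 without food and 2 with food, so the diet was given to tanks and not to single fish. Each library held the whole intestine of 1 adult fish. The groups were starved fish at 3dpS (3 days post-starvation, n = 4) with fed fish of the same day (n = 3), starved fish at 21dpS (21 days post-starvation, n = 4) with fed fish (n = 4), and fish at 3dpR (starved for 21 days and then refed for 3 days, n = 4) with fed fish (n = 4). The labels give an age of 81 dpf (days post-fertilization) to every fish, although the groups were collected on different days, and no other genotype or agent is given for any group. By the labels, the starved fish of 21dpS were replicate 1 from tank 1 and replicates 2, 3 and 4 from tank 2. The fed fish of 3dpS were replicate 1 from tank 1 and replicates 2 and 3 from tank 2. Every other group held fish of both tanks in equal number. P-values take each fish as a replicate, so they measure the spread between these fish and do not cover differences between tanks.

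Reads on genes numbered 500205 in the smallest library and 1236436 in the largest, with a median of 596487. A count of 3 reads was taken as the smallest detectable count. By raw totals it stood for 2.43 to 6.00 CPM (reads scaled to a common library total), and this limit takes in counting error alone. The lowest value, 2.43 CPM, is that of the largest library. Gene levels are CPM after TMM normalization, where 3 reads could stand for more, as 6.56 CPM for cpt2 in refed replicate 2. The largest library, replicate 2 of the 3dpS starved fish, held no odd count, whereas each other library had 6342 to 7756 genes with an odd count, so every value in it is a multiple of 2. The main edgeR fits that use this library were also computed with its counts halved and without it. Its reads, the exact permutation tests that use it, the correlations and the read totals are given with its counts as deposited. Genes of enterocytes summed to between 1280 and 2554 CPM in the 23 libraries, while 13 genes of hepatocytes summed to between 38.3 and 2290 CPM. Reads of a whole intestine do not separate fewer cells of a type from less RNA per cell. The sources used here do not say whether or how strand was used in counting. MT-ND6 exceeded each of 12 other mitochondrial protein genes in all 23 libraries, with a mean of 16493 reads against at most 3915 for any other. Whether the counts of a gene hold reads of its own strand, of the opposite strand or of both was not tested. Every level given here carries this limit, low counts included. Of the 7 genes, RefSeq places only acadvl over other genes, the protein-coding zgc:194312 and a long non-coding RNA gene, and acadvl counts may hold reads of both. RefSeq was read by gene name on a newer assembly than GRCz10, to which the reads were aligned. Overlaps in the annotation used for counting were not examined.

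The 7 genes were measured at very different depth. bbox1 had 3806 reads over the 23 libraries, 70.5% of the 5396 reads of all 7 genes. acadvl had 537 reads, acadm 449 and hadhb 306, with a median of 21, 19 and 13 reads per library. For cpt1ab, cpt2 and etfdh the totals were 136, 109 and 53 reads, and the median library held 5, 4 and 2 reads. Fewer than 3 reads were counted in 5 libraries for cpt1ab, in 6 for cpt2 and in 14 for etfdh. The filter on low counts (edgeR's filterByExpr) kept bbox1, acadvl, acadm and hadhb in every comparison and kept cpt1ab, cpt2 and etfdh in none, so 4 of the 7 genes were tested with edgeR and the other 3 are described by their reads and an exact permutation test. Read counts also depend on transcript length, and levels are not compared between genes here.

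**Figure D1:**
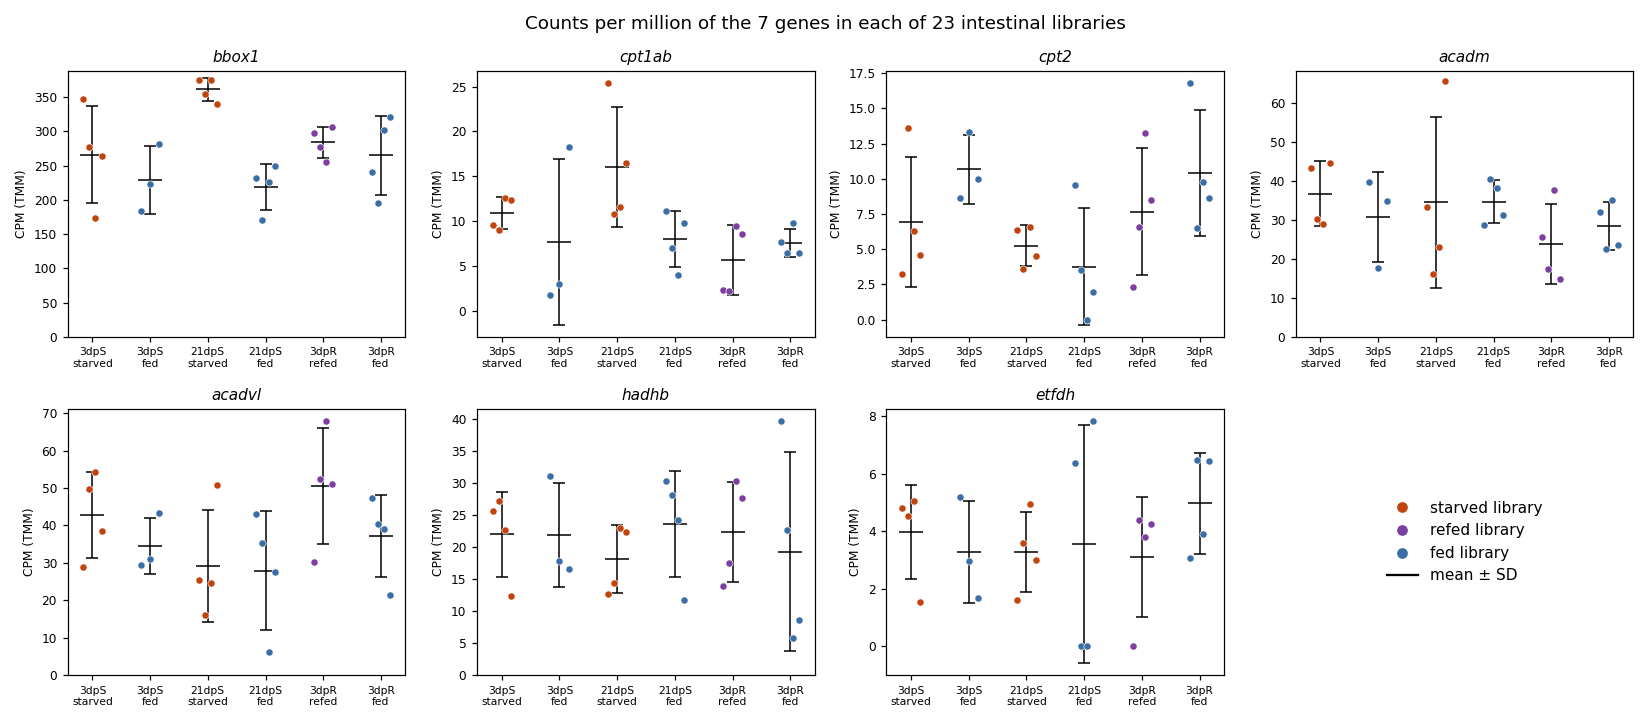
CPM (TMM-normalized, linear axis from 0, a separate scale for each gene) of the 7 genes in 23 libraries, with starved or refed fish left of the fed fish of the same day and bars for the group mean ± SD. The bbox1 points of the 4 starved fish at 21dpS lie between 340.4 and 375 CPM, above the 4 fed fish of that day at 171 to 249 CPM, whereas the points of the other genes overlap between starved or refed and fed fish on all 3 days.

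bbox1 (ENSDARG00000036135) encodes gamma-butyrobetaine dioxygenase, the enzyme of the last step of carnitine synthesis, which in mammals is best known from liver and kidney. At 21dpS it had 375, 354, 375 and 340.4 CPM in the 4 starved fish, against 231, 171, 226 and 249 CPM in the 4 fed fish. Every starved fish was above every fed fish, and the group means were 361 ± 17.0 and 219 ± 33.8 CPM (SD, n = 4 each). The level was 1.59-fold higher in starved fish, a log2 difference of 0.67 ± 0.22 (SE) with a 95% interval of 0.20 to 1.13. It did not pass the test over all genes (adjusted p = 0.105, edgeR's quasi-likelihood test with Benjamini-Hochberg adjustment, unadjusted p = 0.00831), whereas DESeq2 on the same counts gave an adjusted p of 0.0273. An exact permutation test on mean log2 CPM gave p = 0.0286 (two-sided), the smallest that 4 against 4 fish allow.

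At 3dpS the starved fish had 348, 278, 174 and 265 CPM of bbox1, against 183, 222 and 281 CPM in the fed fish. The groups overlapped, with the lowest value of both in a starved fish. The log2 difference was 0.22 ± 0.27, with an interval of -0.37 to 0.82 (adjusted p = 0.774, edgeR), and it was 0.22 with the counts of replicate 2 halved and 0.21 without that library.

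At 3dpR bbox1 stood at 297, 278, 255 and 306 CPM in refed fish, against 240.0, 196, 302 and 321 CPM in fed fish. The refed values lay within the range of the fed ones, and the log2 difference was 0.05 ± 0.21 with an interval of -0.40 to 0.50 (adjusted p = 0.955, edgeR). The fed fish of this day had 240.0 and 196 CPM in tank 1 and 302 and 321 CPM in tank 2, and a difference between tanks was not tested.

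Within the starved arm, which used the same tanks throughout, bbox1 was lower in all 4 refed fish than in all 4 starved fish of 21dpS. The log2 difference, refed minus starved, was -0.34 ± 0.20 with an interval of -0.76 to 0.08 (adjusted p = 0.284, edgeR), and the exact permutation test gave p = 0.0286. That exact value was 0.0571 without starved replicate 1 or without starved replicate 3 of 21dpS, although the groups stayed apart without either. Between starved fish of 21dpS and starved fish of 3dpS the log2 difference was 0.40 ± 0.23 with an interval of -0.09 to 0.89 (adjusted p = 0.339, edgeR), and 1 of the 3dpS values, 348 CPM, lay within the 21dpS range. In order of mean level the 6 groups ran from the starved fish at 21dpS (361 CPM) through refed fish (284 ± 22.8 CPM), starved fish at 3dpS (266 ± 71.3 CPM), fed fish at 3dpR (265 ± 57.4 CPM) and fed fish at 3dpS (229 ± 49.1 CPM) to fed fish at 21dpS (219 CPM). Apart from the first step, the ranges of neighbouring groups in this order overlapped.

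Hepatocyte markers differed between the same libraries, and since bbox1 is a liver gene in mammals their values stand beside it. The 13 markers summed to 334 to 768 CPM in starved fish at 21dpS, against 94.1 to 976 CPM in fed fish, and of 7 markers tested 6 were higher in starved fish and 1 lower, none of them called. The fed fish with the highest sum, replicate 3 at 976 CPM, had 226 CPM of bbox1, below all 4 starved fish. Among refed fish, replicate 4 had the lowest hepatocyte sum of the 23 libraries, 38.3 CPM, and the highest bbox1 level of its group, 306 CPM. Among starved fish of 3dpS, replicate 1 had the highest sum of the 23 libraries, 2290 CPM, and the highest bbox1 level of its group, 348 CPM, while replicate 3, with a sum of 2111 CPM, had the lowest, 174 CPM. At 3dpS the sums ran from 207 to 2290 CPM in starved fish, against 391 to 1242 CPM in fed fish, and all 10 tested markers were higher in starved fish, none of them called. At 3dpR they ran from 38.3 to 406 CPM in refed fish, against 72.9 to 739 CPM in fed fish, and all 4 tested markers were lower in refed fish, none of them called. Over all genes tested, 1995 of 3953 were higher at 3dpS, 1539 of 3203 at 21dpS and 1373 of 2862 at 3dpR. Of the 13 markers tfa, cp and apoa2 had reads in all 23 libraries, and the other 10, fabp10a among them, were at 0 reads in 1 to 7 libraries each. The part of liver RNA in the bbox1 values was not tested.

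**Figure D2:**
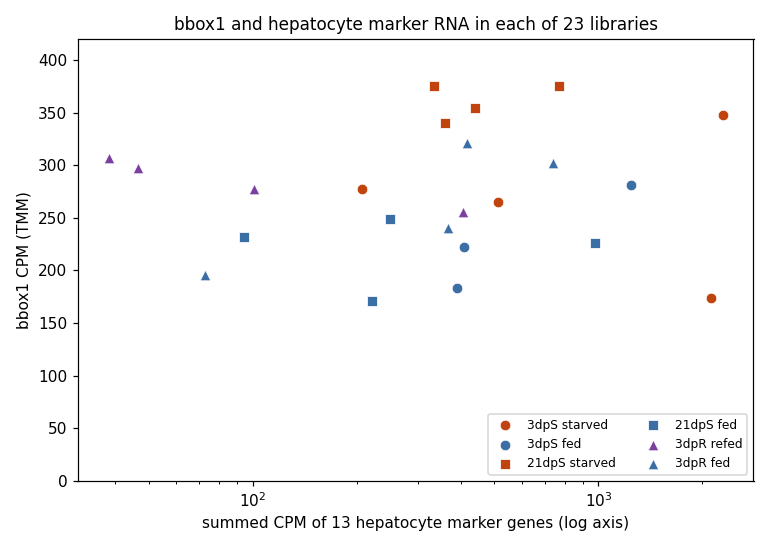
bbox1 (vertical axis, CPM, linear from 0) against the summed CPM of 13 hepatocyte marker genes (horizontal log axis) in each of the 23 libraries, with colours for starved, refed and fed fish and symbols for the 3 days. The 4 starved fish of 21dpS lie at 340.4 to 375 CPM of bbox1 over marker sums of 334 to 768 CPM, and the fed fish of that day lie at 171 to 249 CPM over sums of 94.1 to 976 CPM.

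cpt1ab (ENSDARG00000062054) encodes a carnitine palmitoyltransferase 1, which forms acylcarnitine at the outer mitochondrial membrane and is the regulated entry step of the pathway. It was counted with 16, 6, 7 and 11 reads in the 4 starved fish of 21dpS, against 7, 4, 2 and 5 reads in the 4 fed fish. In CPM these were 25.4, 10.8, 11.5 and 16.4 in starved fish and 11.2, 7.04, 4.03 and 9.80 in fed fish. Only the starved fish with 10.8 CPM lay below a fed fish, the one with 11.2 CPM, and the exact permutation test gave p = 0.0571. The group means were 16.03 ± 6.74 CPM in starved fish and 8.01 ± 3.16 CPM in fed fish (n = 4 each).

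At 3dpR cpt1ab had 1, 1, 5 and 4 reads in refed fish, against 5, 4, 5 and 3 reads in fed fish. The means were 5.62 ± 3.90 and 7.58 ± 1.55 CPM, and 2 of the 4 refed values were below the limit of 3 reads (exact permutation test, p = 0.371). All 4 refed fish, at 2.32, 2.19, 9.45 and 8.51 CPM, lay below all 4 starved fish of 21dpS. The exact permutation test of refed against 21dpS starved fish gave p = 0.0286, the smallest possible, and it ranged from 0.0571 to 0.0857 when any 1 of the 4 libraries of 21dpS starved fish was left out. By the values above the groups stayed apart in each case. With fewer fish the test has fewer regroupings, so this rise does not mark an overlap. With no filter on low counts edgeR gave a log2 difference, refed minus starved, of -1.49 ± 0.57 and an adjusted p of 0.201. At 3dpS the starved fish had 6, 12, 10 and 8 reads (replicate 2 would have 6 with its counts halved), against 1, 2 and 11 reads in the fed fish. The fed fish spanned 1.73 to 18.3 CPM and enclosed all starved fish, which lay between 9.05 and 12.6 CPM (exact permutation test, p = 0.314).

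cpt2 (ENSDARG00000038618), the carnitine palmitoyltransferase of the inner membrane that returns acylcarnitine to acyl-CoA, stayed near the limit of detection. It had 2, 18, 5 and 3 reads in starved fish of 3dpS (replicate 2 would have 9 with its counts halved), against 5, 9 and 6 reads in fed fish. At 21dpS it had 4, 2, 4 and 3 reads in starved fish, against 6, 2, 0 and 1 reads in fed fish, and at 3dpR 1, 3, 7 and 4 reads in refed fish, against 11, 4, 5 and 4 reads in fed fish. The groups overlapped on each day. Means were 6.93 ± 4.61 and 10.7 ± 2.42 CPM at 3dpS, 5.25 ± 1.45 and 3.76 ± 4.13 CPM at 21dpS, and 7.66 ± 4.53 and 10.4 ± 4.48 CPM at 3dpR, each time with starved or refed fish before fed fish. The exact permutation tests gave p = 0.229, 0.343 and 0.400 for the 3 days, and no difference was detectable at these counts.

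acadvl (ENSDARG00000016687) encodes the very long-chain acyl-CoA dehydrogenase, which takes the first step of beta-oxidation on long acyl chains. At 3dpS it had 28.8, 49.8, 54.3 and 38.5 CPM in starved fish, against 29.4, 31.1 and 43.2 CPM in fed fish. At 21dpS it had 25.4, 16.2, 24.7 and 50.8 CPM in starved fish, against 43.1, 35.2, 6.05 and 27.4 CPM in fed fish, and at 3dpR 30.2, 52.5, 68.0 and 51.1 CPM in refed fish, against 47.4, 40.5, 39.0 and 21.5 CPM in fed fish. All 3 pairs of groups overlapped, and the fed value of 6.05 CPM rested on 3 reads. The log2 differences from fed fish were 0.34 ± 0.33 at 3dpS, with an interval of -0.38 to 1.05, -0.01 ± 0.48 at 21dpS, with an interval of -1.04 to 1.02, and 0.38 ± 0.33 at 3dpR, with an interval of -0.33 to 1.09.

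In none of these 3 comparisons did acadvl pass edgeR's quasi-likelihood test (adjusted p = 0.700, 0.994 and 0.793). Its mean was 50.5 ± 15.5 CPM in refed fish and 29.3 ± 14.9 CPM in starved fish of 21dpS. This log2 difference of 0.79 ± 0.37 had an interval of 0.00 to 1.58 and did not pass the test either (edgeR unadjusted p = 0.0491, adjusted p = 0.177). One starved fish, replicate 4 with 50.8 CPM, lay among the refed fish, and the exact permutation test gave p = 0.0571.

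acadm (ENSDARG00000038900), the medium-chain acyl-CoA dehydrogenase, varied most among the starved fish of 21dpS, with 33.4, 16.2, 23.03 and 65.7 CPM (21, 9, 14 and 44 reads), against 28.7, 40.5, 38.3 and 31.3 CPM in fed fish. The fed values all lay inside the starved range, and the means were 34.6 ± 21.9 and 34.7 ± 5.58 CPM. At 3dpS the starved fish had 43.3, 30.2, 29.0 and 44.6 CPM, against 39.8, 17.8 and 34.9 CPM in fed fish, and at 3dpR the refed fish had 25.6, 17.5, 37.8 and 14.9 CPM, against 32.1, 22.7, 35.1 and 23.7 CPM in fed fish. The groups overlapped on both days. The log2 differences from fed fish were 0.26 ± 0.36 at 3dpS, -0.05 ± 0.40 at 21dpS and -0.29 ± 0.37 at 3dpR, with intervals of -0.52 to 1.03, -0.91 to 0.80 and -1.08 to 0.51 (edgeR adjusted p = 0.807, 0.963 and 0.875).

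hadhb (ENSDARG00000102055) encodes the beta subunit of the mitochondrial trifunctional protein, which holds the thiolase that splits off acetyl-CoA. Starved fish of 21dpS had 12.7, 14.4, 23.03 and 22.4 CPM, against 30.3, 28.2, 24.2 and 11.8 CPM in fed fish. In fed fish 3 values lay above all starved values and the other lay below them. The log2 difference was -0.45 ± 0.39 with an interval of -1.27 to 0.38 (edgeR adjusted p = 0.556). At 3dpS the means were 21.95 ± 6.69 CPM in starved fish and 21.9 ± 8.07 CPM in fed fish, and at 3dpR 22.3 ± 7.85 CPM in refed fish and 19.2 ± 15.5 CPM in fed fish, whose single values ran from 5.85 to 39.7 CPM. The log2 differences of these days were 0.04 ± 0.39 and 0.12 ± 0.52, with intervals of -0.81 to 0.89 and -0.99 to 1.22 (edgeR adjusted p = 0.984 and 0.958).

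etfdh (ENSDARG00000038834) encodes the electron transfer flavoprotein dehydrogenase, which passes electrons from the acyl-CoA dehydrogenases to ubiquinone. It had 3, 6, 4 and 1 reads in starved fish of 3dpS (replicate 2 would have 3 with its counts halved), against 3, 2 and 1 reads in fed fish. At 21dpS it had 1, 2, 3 and 2 reads in starved fish, against 4, 0, 0 and 4 reads in fed fish, and at 3dpR 0, 2, 2 and 2 reads in refed fish, against 2, 4, 2 and 3 reads in fed fish. No difference between groups was detectable at these counts, with exact permutation tests at p = 0.657, 0.771 and 0.257.

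Counted over all comparisons, none of the 4 tested genes was called at an adjusted p under 0.05 by edgeR's quasi-likelihood test. At 3dpS 0 of 4 were called, where 21 of all 3953 genes tested were called (0.531%). All 4 were higher in starved fish, where 50.5% of all genes tested were higher. Their median log2 difference was 0.24 against 0.01 over all genes. That of hadhb, 0.04, turned negative with the tank block and without fed replicate 2 or 3 or starved replicate 1 or 2. Without fed replicate 2 that of acadm also turned negative. None of the 4 reached an unadjusted p under 0.05, beside 591 genes in all. Fed replicate 1 of this day stood apart, with an exocrine pancreas marker sum of 6715 CPM against 616 and 828 CPM in fed replicates 2 and 3. Without fed replicate 1 edgeR called 116 of 4368 genes. It called 1 of 4354 without fed replicate 2 and 2 of 4380 without fed replicate 3. None of the 7 genes was called in these fits. At 21dpS 0 of 4 were called, where 90 of 3203 genes were called (2.81%). There the fitted log2 difference was above 0 for bbox1 and below 0 for acadm, acadvl and hadhb, although that of acadvl, -0.01, turned positive under DESeq2, RLE factors, no filter, the tank block and the fit of all 23 libraries, and its mean CPM was 29.3 ± 14.9 in starved fish and 27.9 ± 15.9 in fed fish. The 4 genes had a median of -0.03 against -0.02 over all genes. bbox1 alone had an unadjusted p under 0.05, as had 670 genes in all. DESeq2 called bbox1 alone of the 7 genes at 21dpS, where it called 206 of 3548 genes in all. It called none of the 7 in the other comparisons. At 3dpR 0 of 4 were called, where 1 of 2862 genes was called (0.0349%), and the median was 0.08 against -0.02 over all genes. None of the 4 had an unadjusted p under 0.05 there, beside 215 genes in all.

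Along the starved arm the counts were also 0 of 4. In 21dpS starved against 3dpS starved fish, 67 of 3609 genes were called (1.86%), and the 4 genes had a median log2 difference of -0.22 against -0.02 over all genes. Again none of the 4 had an unadjusted p under 0.05, beside 724 genes in all. In refed against 21dpS starved fish, 341 of 3008 genes were called (11.3%), and the 4 genes had a median of -0.01 against 0.00. acadvl alone of the 4 had an unadjusted p under 0.05 there, as had 840 genes in all. Both comparisons, and that with fed fish of 21dpS, use the same 21dpS starved libraries.

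Among the tested genes of the 7, only bbox1 had starved or refed groups that did not overlap their comparison group. This was so at 21dpS, where 402 of 3203 tested genes did not overlap (12.6%), and in refed against 21dpS starved fish, where 531 of 3008 did not (17.7%). cpt1ab, which the filter did not keep, also had no overlap between refed and 21dpS starved fish. In the other comparisons no tested gene of the 7 had groups without overlap, beside 564 genes at 3dpS (14.3%), 133 genes at 3dpR (4.65%) and 418 genes between starved fish of 21dpS and 3dpS (11.6%). In all, 56 exact tests were run (7 genes in 8 comparisons), and 3 of them reached the smallest p that the numbers of fish allow, 2 for bbox1 and 1 for cpt1ab, given above. These exact p-values are not adjusted for the 56 tests.

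**Figure D3:**
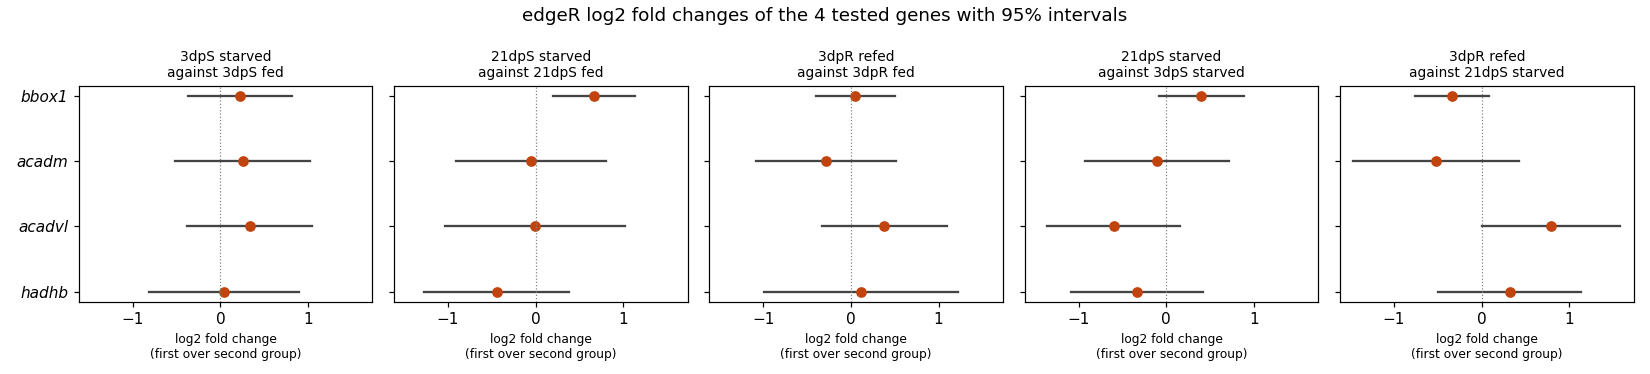
Log2 fold changes (edgeR, points) with 95% intervals (bars) of bbox1, acadm, acadvl and hadhb in 5 comparisons, with values above 0 higher in the first-named group. The interval of bbox1 at 21dpS, 0.20 to 1.13, lies above 0 and that of acadvl in refed against 21dpS starved fish begins at 0.00, while the other intervals include 0.

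The effect of diet was also compared between days in 1 fit of all 23 libraries. For bbox1 the effect at 21dpS exceeded that at 3dpS by 0.50 ± 0.32 on the log2 scale (edgeR adjusted p = 0.688), and the effect at 3dpR minus that at 21dpS was -0.62 ± 0.31 (unadjusted p = 0.0555, adjusted p = 0.507). For acadm, acadvl and hadhb the adjusted p-values of both differences lay between 0.804 and 0.934. Of all 4628 genes, 0 were called for the first difference (0%), with 400 at an unadjusted p under 0.05, and 2 for the second (0.0432%). A difference in the response of bbox1 between days was thus not shown.

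Fed fish of different days set the background for these values. None of the 4 genes was called between fed fish, where 2 of 3401 genes were called in 21dpS against 3dpS fish (0.0588%), 0 of 3114 in 3dpR against 21dpS fish (0%) and 0 of 3482 in 3dpR against 3dpS fish (0%). At an unadjusted p under 0.05 these 3 comparisons held 470, 162 and 218 genes, none of the 4 among them. For bbox1 the log2 differences between fed groups were -0.06 ± 0.27, 0.26 ± 0.23 and 0.22 ± 0.27 in the same order.

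The 7 genes did not vary as 1 block over the libraries. The Pearson correlation of log2 CPM over the 23 libraries ran from -0.40 for bbox1 with hadhb to 0.65 for cpt2 with acadvl among the 21 pairs, and that of acadm with acadvl, which encode dehydrogenases of the same step, was 0.06. These correlations are descriptions over libraries that share groups and depth. The 3 genes most like bbox1 among 4628 genes were PCCB (r = 0.80), the beta subunit of propionyl-CoA carboxylase, si:ch211-232f6.3 (r = 0.78) and dnase1l4.1 (r = 0.77). Those most like acadm were adh8a (r = 0.68), ENSDARG00000019188 (r = 0.68) and SERP1 (r = 0.67). GOLGA4 (r = 0.75), fam83fb (r = 0.75) and TBC1D7 (r = 0.72) were most like acadvl, and EIF4E3 (r = 0.67), EPC1 (r = 0.66) and STT3B (r = 0.66) were most like hadhb.

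The other genes of the pathway were taken from 8 lists of 86 symbols, of which 67 matched a gene: carnitine synthesis, carnitine transport and acyl transfer, acyl-CoA synthetases, other mitochondrial beta-oxidation, the electron transfer flavoprotein, peroxisomal oxidation, ketone body and propionyl-CoA metabolism, and regulators with malonyl-CoA metabolism. Of these genes tmlhe, the first enzyme of carnitine synthesis, and mlycd, malonyl-CoA decarboxylase, are listed at 0 reads in all libraries. In starved fish at 3dpS 0 of 28 tested genes were called, with 10 higher and 18 lower, a median log2 difference of -0.10 and 3 lower genes at an unadjusted p under 0.05. Over all 3953 genes tested there, 50.5% were higher, the median was 0.01 and 591 had an unadjusted p under 0.05. At 21dpS 0 were called higher and 1 lower of 21 tested, with 6 higher and 15 lower and a median of -0.24, and in refed against fed fish 0 of 19 were called, with a median of -0.19 and 0 at an unadjusted p under 0.05. Over all genes tested, 1539 of 3203 were higher at 21dpS and 1373 of 2862 in refed against fed fish. DESeq2 also called 0 list genes in both comparisons without a call. In 21dpS against 3dpS starved fish 0 were called higher and 1 lower of 24 tested (median -0.40), and in refed against 21dpS starved fish 2 were called higher and 0 lower of 20 tested (median 0.21). At an unadjusted p under 0.05 the former held 1 higher and 9 lower list genes, beside 724 genes in all. The latter held 5 higher and 1 lower, beside 840 genes in all. The percentages of all genes called, given above, were 2.81%, 1.86% and 11.3% in the 3 comparisons with a call.

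Peroxisomes shorten very long and branched fatty acids. At 21dpS all 6 tested genes of the peroxisomal list had a lower level in starved fish, 1 of them called, with a median log2 difference of -0.62. In refed against fed fish all 6 tested were lower, none called, with a median of -0.23. In refed against 21dpS starved fish 5 of 7 were higher, 1 of them called, where 50.1% of all genes tested were higher and 11.3% were called. The mitochondrial list had 3 tested genes at 21dpS, of which 2 were lower and 1 higher, none called. Of 4 tested genes of ketone body and propionyl-CoA metabolism 3 were higher in starved fish of 21dpS and 1 was lower, none called. Exocrine pancreas markers summed to 146 to 379 CPM in the same starved fish, against 278 to 1302 CPM in fed fish, and all 5 tested were lower, 2 of them called. Enterocyte markers summed to 1280 to 1547 CPM in these starved fish, against 1524 to 2008 CPM in fed fish, and 4 of 5 tested were lower and 1 higher, none called, with a median log2 difference of -0.64. In refed fish they summed to 1541 to 1865 CPM, against 1921 to 2306 CPM in fed fish of 3dpR, with 4 of 5 tested lower and none called. The part of either cell type in the list values was not tested.

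**Figure D4:**
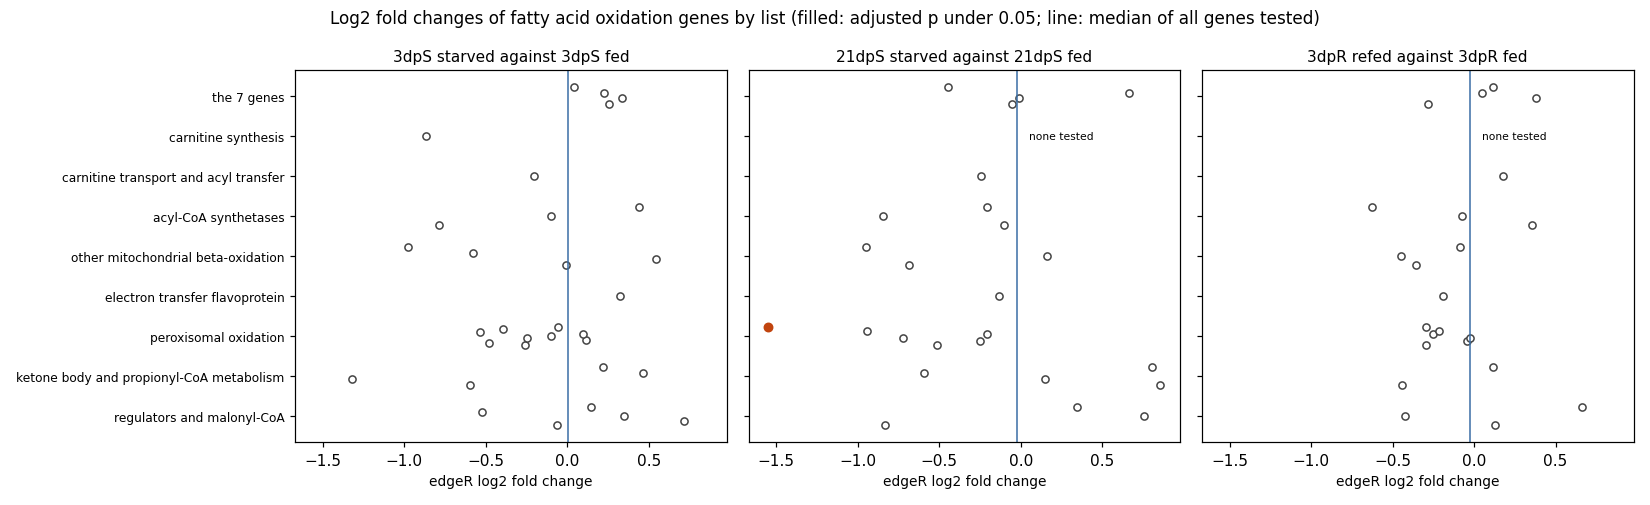
Log2 fold change over fed fish (edgeR) of each tested gene of the 7 and of the pathway lists at 3dpS, 21dpS and 3dpR, with filled points for genes called at an adjusted p under 0.05 and a line at the median of all genes tested. The 1 filled point is scp2a at 21dpS, at -1.55.

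scp2a (ENSDARG00000012194), which encodes sterol carrier protein 2, a peroxisomal thiolase and lipid carrier, was the 1 list gene called at 21dpS. It had 95.3, 55.7, 143 and 115 CPM in starved fish, against 305, 429, 177 and 243 CPM in fed fish. All starved fish were below all fed fish, and scp2a fell by 1.55 ± 0.34 on the log2 scale (edgeR adjusted p = 0.0270). In refed fish it had 198, 223, 215.5 and 213 CPM, above all 4 starved fish of 21dpS, and rose by 1.06 ± 0.28 relative to them (adjusted p = 0.0241). Refed and fed fish of 3dpR differed by -0.29 ± 0.23 (adjusted p = 0.750). The first call was lost, with adjusted p-values of 0.0685 to 0.0714, without fed replicate 2 or without starved replicate 1, 2 or 4. The second was lost, at 0.0507 to 0.0625, without starved replicate 1, 2 or 4 of 21dpS or without refed replicate 3 or 4.

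mecr (ENSDARG00000032326), a mitochondrial enoyl reductase of fatty acid synthesis that the list holds among the mitochondrial enzymes, had 109, 63.4, 104 and 177 CPM in refed fish, against 30.2, 52.1, 57.6 and 47.8 CPM in starved fish of 21dpS. The groups did not overlap, and mecr rose by 1.28 ± 0.32 on the log2 scale (edgeR adjusted p = 0.0213). The call was lost without starved replicate 1 (0.0625) or 4 (0.0604) or without refed replicate 4 (0.0721). In starved against fed fish mecr differed by -0.98 ± 0.27 at 3dpS (adjusted p = 0.113) and by -0.95 ± 0.36 at 21dpS (adjusted p = 0.151), neither of which passed the test.

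hnf4a (ENSDARG00000021494), a nuclear receptor of enterocytes and hepatocytes, was counted with 10, 4, 5 and 8 reads in starved fish of 21dpS, against 17, 48, 20 and 26 reads in starved fish of 3dpS. In CPM these were 15.9, 7.19, 8.23 and 11.9 at 21dpS and 27.2, 36.2, 25.2 and 40.0 at 3dpS, without overlap. It was lower at 21dpS by 1.59 ± 0.35 on the log2 scale (edgeR adjusted p = 0.0362, and 0.0354 with the counts of 3dpS starved replicate 2 halved). With the tank number as a replicate block the adjusted p was 0.0681, and it lay between 0.0573 and 0.107 without 3dpS starved replicate 1, 2 or 4 or without any 1 of the 21dpS starved libraries. In fed fish hnf4a had 9.57, 21.1, 14.1 and 3.92 CPM at 21dpS, against 10.4, 23.7 and 24.9 CPM at 3dpS, a log2 difference of -0.68 ± 0.55 (edgeR adjusted p = 0.610), and starved and fed fish of 21dpS averaged 10.8 ± 3.95 and 12.2 ± 7.27 CPM. Starved and fed fish of 3dpS averaged 32.2 ± 7.07 and 19.7 ± 8.08 CPM. There all starved fish lay above all fed fish, and 14.3% of all genes tested had no overlap. The effect of diet at 21dpS minus that at 3dpS was -0.86 ± 0.77 (adjusted p = 0.798), so the difference between days in starved fish was not shown to differ from that in fed fish. The hepatocyte marker sum was also lower at 21dpS, with a median of 400.0 CPM in starved fish of 21dpS against 1312 CPM in starved fish of 3dpS, and its part in the hnf4a value was not tested.

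pccb, the gene most like bbox1 over the libraries, had 265, 289, 289.5 and 299 CPM in starved fish of 21dpS when ordered by size, against 131, 155, 163 and 180.2 CPM in fed fish. The groups did not overlap, and the log2 difference of 0.81 ± 0.22 did not pass the test (edgeR adjusted p = 0.0631), whereas DESeq2 gave 0.00434 and the fit of all 23 libraries gave 0.0171. phyh, the peroxisomal enzyme that opens the breakdown of phytanic acid, averaged 118 ± 41.4 CPM in starved fish and 218 ± 40.3 CPM in fed fish of that day. Its log2 difference of -0.94 ± 0.29 had an adjusted p of 0.0912 (edgeR), against 0.0424 with the tank number as a block. That block joins starved and fed tanks by number only, although they are different tanks. At 3dpS the genes with the smallest p-values beside mecr were acsl1b, a long-chain acyl-CoA synthetase, at -0.79 ± 0.27 (adjusted p = 0.189), and oxct1b, of ketone body use, at -1.32 ± 0.51 (adjusted p = 0.243). In refed against fed fish they were slc27a2a at -0.63 ± 0.43, acsl1b at 0.36 ± 0.27 and scp2a, with adjusted p-values of 0.724 to 0.750.

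**Figure D5:**
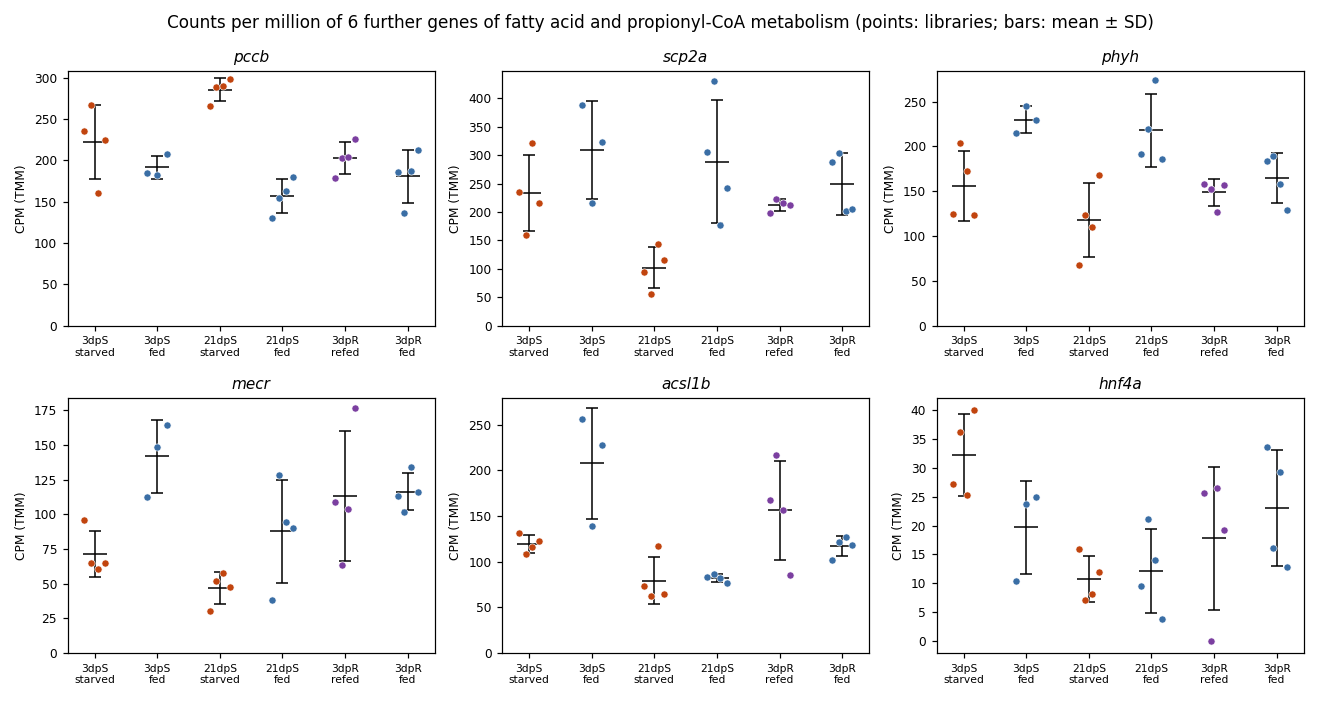
CPM (TMM-normalized, linear axis from 0) of pccb, scp2a, phyh, mecr, acsl1b and hnf4a in 23 libraries, with starved or refed fish left of the fed fish of the same day and bars for the group mean ± SD. At 21dpS the starved fish average 286 CPM of pccb and 102 CPM of scp2a, and the fed fish average 157 and 289 CPM.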

How the data were processed

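Intestinal RNA of 23 fish was sequenced as 50-bp single-end reads. The authors trimmed reads with Trim Galore, aligned them to GRCz10 with STAR and deposited raw HTSeq counts per Ensembl gene. The strand option and annotation release are not given in the sources used here. Groups were taken from the time point and diet in the sample titles.

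The main tool was edgeR 4.0.16 in R 4.3.3 (TMM factors, filterByExpr, robust quasi-likelihood test), fitted on all genes of the libraries compared. P-values were two-sided and adjusted by the Benjamini-Hochberg method over all genes tested, and a gene was called at an adjusted p under 0.05. Exact permutation tests used the mean log2 CPM with a prior count of 2. Alternatives were DESeq2 1.42.0, which the study names, RLE factors, no filter, tank number as a block, all 23 libraries in 1 fit, and each library left out. In comparisons of starved or refed with fed fish, tanks of the same number are different tanks, so there the block joins unrelated tanks. Halving the counts of 3dpS starved replicate 2 and the alternatives of the exact tests were added after the data were seen.

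The 7 genes and the lists were chosen with earlier results of these data known. Named were the 7 genes, every list gene called, the 3 list genes with the smallest p-values in each diet comparison, and the 3 genes most correlated with each tested gene. Symbols were found for 26803 of 34326 genes. Within the fed and the starved arm the tanks were shared. Deviations from the group means had a mean r of -0.07 to 0.20 between libraries of the same tank number. Deviations within a group cancel out, so the mean r between other tank numbers nearly mirrors these values and holds no further information. The largest value for the same tank number, 0.20, was between fed fish of 3dpR and 21dpS. Whether tanks differed was not tested. The tests carried no block. The test scripts were checked on simulated counts.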

Additional observations from a re-analysis of the deposited data

Results flagged for a closer look

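Both values flagged as apart from their group belonged to etfdh, the gene with the fewest reads. In starved fish of 3dpS, replicate 4 had 1.538 CPM of etfdh, below the other 3 fish at 4.53 to 5.05 CPM, and this value rests on 1 read. In refed fish, replicate 1 was at 0 CPM, with 0 reads, below the other 3 fish at 3.78 to 4.37 CPM, which had 2 reads each. In both groups the gap to the nearest fish, as a share of the whole range (0.851 and 0.864), exceeded Dixon's critical value for 4 samples. Of 35 groups of 4 fish examined for the 7 genes, these 2 were the only ones, and chance flags about 1 in 20 for continuous values. These groups held 1 to 6 and 0 to 2 reads per fish. Neither the critical value nor that rate holds at such counts, so no conclusion is drawn from the flags.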

How the results depend on the processing

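Across 28 log2 fold changes of the 4 tested genes, 393 of 424 values under the alternatives kept their direction and call, 30 reversed and 1 was newly called. That was bbox1 at 21dpS under DESeq2, which made the count of the 7 genes called there 1, beside 206 of 3548 genes in all. With the tank number as a replicate block that fold change was 0.65 (adjusted p = 0.0983), and the adjusted p was 0.0553 with all 23 libraries, 0.354 with no filter and 0.128 to 0.211 with each library left out. No block fit changed a call of the 7 genes. In comparisons of starved or refed with fed fish the block joins different tanks by number, so it does not measure tank differences there. Reversed values all belonged to fold changes that did not pass the test, as none of the 28 did in the main fits. They were hadhb at 3dpS (-0.071 with the block), acadm at 21dpS (0.0100 with all 23 libraries) and acadvl at 21dpS (0.0571 with DESeq2, 0.00685 with RLE factors, 0.0421 with no filter, 0.22 with the block and 0.0573 with all 23 libraries).

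With 1 library left out, ranges that crossed 0 were -0.0416 to 0.49 for acadm and -0.14 to 0.38 for hadhb at 3dpS, -0.55 to 0.19 for acadm and -0.39 to 0.30 for acadvl at 21dpS, -0.0562 to 0.18 for bbox1 and -0.16 to 0.76 for hadhb at 3dpR, and -0.60 to 0.14 for acadm between 21dpS and 3dpS starved fish. For acadm the difference between the effects at 21dpS and 3dpS ranged from -0.75 to 0.0526, and that between 3dpR and 21dpS from -0.57 to 0.27.

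Calls among the list genes at 21dpS numbered 1, where 90 of all 3203 genes were called. List calls numbered 2 with DESeq2 (206 of 3548 genes in all), 2 with the block (135 of 3203 in all) and 3 with all 23 libraries. With a library left out list calls numbered 0 to 2. Between 21dpS and 3dpS starved fish they numbered 1, against 3 with DESeq2, 3 with no filter, 0 with the block and 0 to 1 with a library left out, and between refed and 21dpS starved fish 2, against 0 to 4 with a library left out. For the other alternatives the calls over all genes are not given here, so these counts are not read as particular to the lists. The cause of these shifts was not tested. Low counts limit cpt1ab, cpt2 and etfdh most, whose median library held 5, 4 and 2 reads.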
